A study of Homo sapiens with 6 samples.

Results

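The transcripts of 7 genes of the RAS to ERK signalling cascade, HRAS, NRAS, NF1, BRAF, MAP2K1, MAP2K2 and MAPK3, were followed in a pancreatic cancer cell line, in libraries labelled with and without SIRT4 overexpression. The 7 genes were taken by name from a table of 67140 Ensembl genes, and all 7 were found there and passed the low-count filter that left 20786 genes for testing. The cells carry the label CAPAN-2, an established line from a human pancreatic ductal adenocarcinoma. Total RNA was sequenced from 3 libraries labelled SIRT4 overexpression and 3 labelled as control cells without it (ctrl). SIRT4 is a mitochondrial sirtuin. The vector, the time of overexpression, and whether the cells were a clone or a pool are not stated in the labels. No label says that the 3 libraries of a group came from separate cultures, and the p-values then speak only of the spread among these libraries, which may be technical.

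RAS proteins are small GTPases at the inner face of the plasma membrane that are active when bound to GTP. NF1 (neurofibromin) speeds the hydrolysis of that GTP and so switches RAS off, whereas active RAS recruits RAF kinases such as BRAF. RAF phosphorylates the kinases MEK1 and MEK2 (MAP2K1 and MAP2K2), which phosphorylate ERK1 (MAPK3) and its paralog ERK2, and ERK then acts on cytoplasmic and nuclear substrates. This cascade is the main oncogenic pathway of pancreatic ductal adenocarcinoma, and it is controlled largely by protein activity, which RNA levels do not measure.

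The promoters of HRAS and NF1 are shown because these were the members whose transcripts passed the test, and that of NRAS is shown as the RAS paralog of HRAS. Each window holds 250 bases before and 50 after the start that the RefSeq table gives the gene (build GRCh38.p14), on the coding strand. Capitals mark every GC box (GGGCGG, or its reverse complement CCGCCC) and every ETS core (CCGGAAG, or CTTCCGG). The windows lie at chr11:535527-535826 on the minus strand for HRAS, chr1:114716722-114717021 on the minus strand for NRAS and chr17:31094727-31095026 on the plus strand for NF1. The 50 bases after the start were found as 1 run in 1 GENCODE 29 transcript of NRAS and 4 of NF1 but in none of HRAS, whose window lies inside the span that GENCODE 29 gives the gene.
HRAS: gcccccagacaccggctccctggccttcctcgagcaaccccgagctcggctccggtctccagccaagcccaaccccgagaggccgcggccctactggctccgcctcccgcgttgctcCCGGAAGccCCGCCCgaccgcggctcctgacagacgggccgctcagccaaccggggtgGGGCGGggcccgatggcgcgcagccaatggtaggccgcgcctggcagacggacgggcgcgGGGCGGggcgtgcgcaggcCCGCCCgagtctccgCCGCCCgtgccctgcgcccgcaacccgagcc
NRAS: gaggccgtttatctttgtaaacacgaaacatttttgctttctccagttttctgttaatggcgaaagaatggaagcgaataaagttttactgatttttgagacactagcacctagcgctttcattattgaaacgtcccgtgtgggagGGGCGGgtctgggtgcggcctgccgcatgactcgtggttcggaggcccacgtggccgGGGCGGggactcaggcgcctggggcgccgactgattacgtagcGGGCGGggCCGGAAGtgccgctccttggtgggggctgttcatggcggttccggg
NF1: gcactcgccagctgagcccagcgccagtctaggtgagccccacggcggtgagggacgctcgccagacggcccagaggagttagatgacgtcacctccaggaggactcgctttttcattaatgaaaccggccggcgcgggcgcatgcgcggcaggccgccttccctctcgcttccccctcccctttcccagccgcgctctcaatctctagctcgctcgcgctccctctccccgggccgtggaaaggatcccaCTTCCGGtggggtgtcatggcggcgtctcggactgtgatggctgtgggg
The HRAS window held 5 GC boxes and 1 ETS core and the NRAS window held 3 GC boxes and 1 ETS core. The NF1 window held no GC box and 1 ETS core. Among 35116 promoters of the same length, 45.0% held a GC box and 10.3% an ETS core, so these matches describe the windows and are not evidence of binding.

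Total estimated counts ran from 51999089 to 65156041 in SIRT4 libraries and from 50945991 to 57626801 in ctrl libraries. SIRT4 itself had 3.31, 2.80 and 3.60 CPM (counts scaled to library size with TMM factors) in SIRT4 libraries 1 to 3, against 2.47, 1.96 and 1.83 CPM in ctrl libraries 1 to 3. Its log2 fold change of 0.63 (SE 0.21) did not pass the quasi-likelihood test of edgeR, with a Benjamini-Hochberg adjusted p of 0.0752 and a range of 0.0384 to 0.200 over 15 alternatives, of which only DESeq2 was under 0.05. The overexpression named in the labels was not borne out by this test of SIRT4 itself, and SIRT4 stands below for the libraries so labelled. Of 9 ductal markers, KRT8, KRT18 and KRT19 were abundant in both groups and CFTR was at or near 0. The summed ductal markers were 4507 to 4651 CPM in SIRT4 libraries and 2416 to 2536 CPM in ctrl libraries, most of it from these 3 keratins. Another ductal marker, SOX9, was lower, at 275 ± 21.9 CPM in SIRT4 and 388 ± 10.3 CPM in ctrl libraries (SD, n = 3 each; edgeR adjusted p = 0.00127), and EPCAM did not pass (log2 fold change -0.19). The long non-coding RNAs MALAT1, NEAT1, MEG3, KCNQ1OT1, OIP5-AS1 and NORAD summed to 1153 to 1336 CPM in SIRT4 and 1592 to 2156 CPM in ctrl libraries. This sum does not measure a nuclear share of the RNA. MEG3 (log2 fold change -0.77) and OIP5-AS1 (-0.57) passed as lower, and the others did not pass. NEAT1 varied widely within groups, at 185 to 442.2 CPM in SIRT4 and 426.6 to 934.8 CPM in ctrl libraries. Leukocyte markers (6 genes) summed to 38.2 to 49.0 CPM against 62.6 to 92.0 CPM, most of it from the lysosomal gene CD68, with CD3E at 0 in all libraries. Fibroblast markers (10 genes) summed to 189.7 to 195.7 CPM in SIRT4 libraries and 185.1 to 203.5 CPM in ctrl libraries, mostly COL1A1, with COL1A2, DCN and FAP at 0. Endothelial markers (6 genes) summed to under 1.53 CPM in every library. The part of these differences in the results on the cascade was not tested.

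Of the 7 cascade genes, 2 were higher in SIRT4 libraries, HRAS and NF1, none was lower, and 5 did not pass an adjusted p of 0.05. Over all 20786 tested genes 17.1% were called, 9.38% higher and 7.67% lower, and the 2 of 7 (28.6%) are too few to set the cascade apart from that background. In 4 of the 7 genes, HRAS, NF1, MAPK3 and MAP2K2, the groups did not overlap in CPM, as was the case in 37.6% of all tested genes. The median log2 fold change was 0.15 for the 7 genes and -0.02 for all tested genes. In bulk RNA a higher level in each cell and a greater share of cells with the transcript cannot be told apart.

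**Figure D1:**
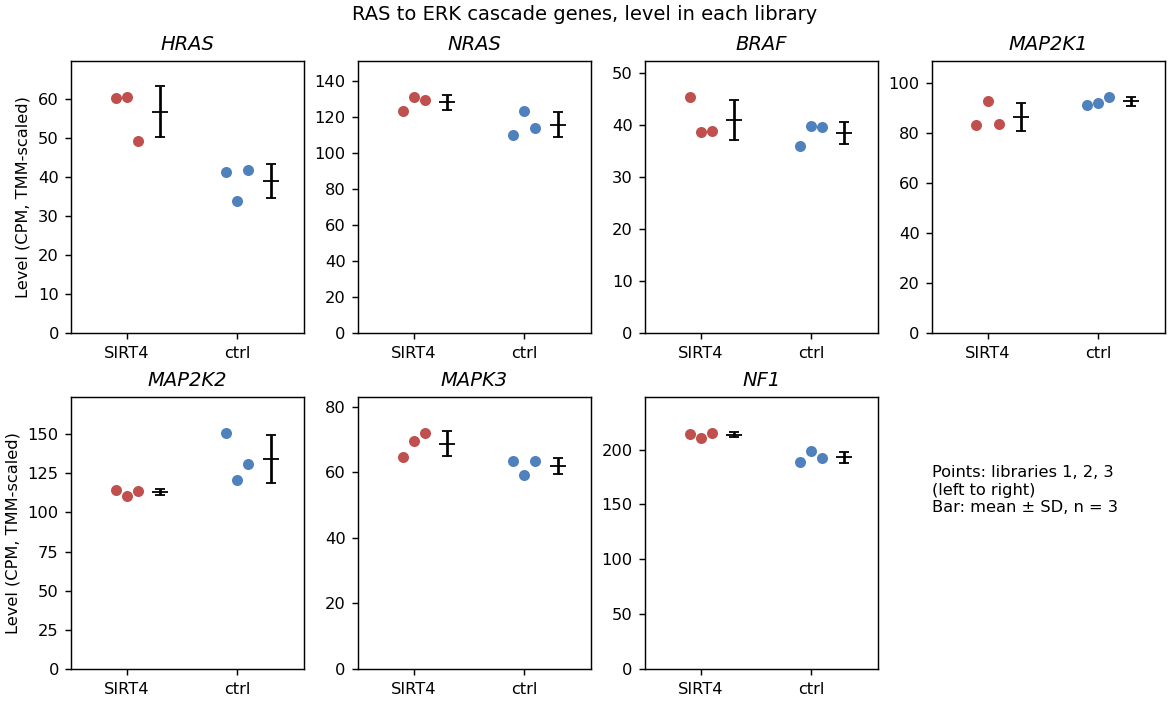
Level of each cascade gene in CPM (y axis, from 0) in every SIRT4 and ctrl library, with the mean and SD of 3 libraries beside the points. The HRAS points of the SIRT4 libraries lie between 49.4 and 60.8 CPM, all above the ctrl libraries, and the NF1 points form tight groups that do not overlap.

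HRAS, one of the RAS GTPases, showed the largest difference of the 7. It is ENSG00000174775, on chromosome 11 from 532242 to 537287 on the minus strand (GENCODE 29, GRCh38). HRAS had 60.5, 60.8 and 49.4 CPM in SIRT4 libraries 1 to 3, against 41.3, 34.0 and 42.0 CPM in ctrl libraries 1 to 3. All SIRT4 libraries stood above all ctrl libraries, and the gap was narrowest between SIRT4 library 3 and ctrl library 3. The level was 45.5% higher in SIRT4 libraries, a log2 fold change of 0.54 (SE 0.11; 95% interval 0.28 to 0.80; edgeR adjusted p = 0.0143). Without SIRT4 library 1 the adjusted p was 0.0523, without SIRT4 library 2 it was 0.0577, and over the 15 alternatives it ran from 0.000274 to 0.0577. HRAS also varied most within groups, with a pooled SD of 0.17 on the log2 scale, against 0.029 to 0.12 for the other members.

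NRAS, the other RAS gene followed here, is ENSG00000213281 on chromosome 1 from 114704469 to 114716894 on the minus strand. It had 123.4, 131.4 and 129.5 CPM in SIRT4 libraries, against 109.8, 123.6 and 113.9 CPM in ctrl libraries. Ctrl library 2 was level with SIRT4 library 1, so the groups overlapped. NRAS did not pass, at a log2 fold change of 0.15 (SE 0.06; 95% interval 0.01 to 0.28; edgeR adjusted p = 0.138). Its interval ends at 0.28, where that of HRAS begins; the difference between the 2 fold changes was not tested. An offset for transcript GC content and length, added after seeing the data, brought the adjusted p of NRAS to 0.0487.

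Levels were also set per summed exon length as TPM. HRAS then made up 54.1%, 52.6% and 47.8% of the sum of HRAS and NRAS in SIRT4 libraries 1 to 3. In ctrl libraries 1 to 3 it made up 47.5%, 39.7% and 46.9%. Every SIRT4 library was above every ctrl library, but SIRT4 library 3 and ctrl library 1 differed by less than the spread within either group. The sum itself was 196.2 ± 13.9 TPM in SIRT4 and 158.9 ± 4.06 TPM in ctrl libraries (SD, n = 3 each). The shares and the sum depend on the length used. Summed exons of HRAS have 1854 bases and its longest transcript 1233, while both lengths are 4449 for NRAS.

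NF1, the negative regulator of RAS among the members, is ENSG00000196712 on chromosome 17 from 31094927 to 31382116 on the plus strand. It had 214.2, 210.7 and 215.4 CPM in SIRT4 libraries, against 188.4, 198.4 and 192.3 CPM in ctrl libraries. The groups did not overlap, and the difference was small beside that of HRAS. NF1 was 10.6% higher in SIRT4 libraries, a log2 fold change of 0.15 (SE 0.04; 95% interval 0.05 to 0.24; edgeR adjusted p = 0.0465). NF1 was the steadiest member: its SD within groups, 0.029 on the log2 scale, stood at percentile 2.5 of the genes at 10 CPM or more. The call was nevertheless lost in 8 of 15 alternatives, among them library-size scaling (adjusted p = 0.101) and the omission of SIRT4 library 1 (0.0971), 2 (0.0987) or 3 (0.103) or of ctrl library 1 (0.121) or 3 (0.119). All 12 annotated NF1 pseudogenes in the table, like those of BRAF and MAP2K1, were listed at 0, so reads from stretches they share with the parent genes may have been lost or given to the parents.

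BRAF, the RAF kinase followed here, is ENSG00000157764 on chromosome 7 from 140719327 to 140924928 on the minus strand. It had 45.4, 38.7 and 38.8 CPM in SIRT4 libraries, against 36.0, 39.7 and 39.6 CPM in ctrl libraries. Only SIRT4 library 1 stood above the ctrl libraries, and the other two lay among them. BRAF did not pass, at a log2 fold change of 0.09 (SE 0.09; 95% interval -0.11 to 0.29; edgeR adjusted p = 0.541), and without SIRT4 library 1 this was 0.015. Exons of BRAF overlap those of NDUFB2, on the opposite strand, by 1239 bases, and the strand setting of the counting is not given. NDUFB2, a complex I subunit gene, was itself higher by 0.30 on the log2 scale.

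Both MEK genes had negative log2 fold changes, and neither passed. MAP2K2 (MEK2) is ENSG00000126934 on chromosome 19 from 4090321 to 4124129 on the minus strand. It had 114.5, 110.8 and 113.8 CPM in SIRT4 libraries, against 151.0, 120.9 and 130.8 CPM in ctrl libraries. The SIRT4 libraries were close together and below every ctrl library, while the ctrl libraries were spread widely. Its log2 fold change was -0.25 (SE 0.08; 95% interval -0.43 to -0.07; edgeR adjusted p = 0.0707). Library-size scaling gave an adjusted p of 0.0485 and the omission of ctrl library 2 gave 0.0285, over a range of 0.0285 to 0.186 in the 15 alternatives.

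MAP2K1 (MEK1) is ENSG00000169032 on chromosome 15 from 66386817 to 66492312 on the plus strand. It had 83.2, 93.0 and 83.6 CPM in SIRT4 libraries, against 91.2, 92.2 and 94.6 CPM in ctrl libraries. SIRT4 library 2 lay among the ctrl libraries and the other two below them. Its log2 fold change was -0.10 (SE 0.06; 95% interval -0.24 to 0.04; edgeR adjusted p = 0.329). On the opposite strand, exons of SNAPC5 share 216 bases with those of MAP2K1, and exons of the antisense gene AC116913.1 share 432. AC116913.1 itself had few counts, on average 74.67 in SIRT4 and 60 in ctrl libraries. Per length, the sum of both MEK transcripts was 147.1 ± 5.25 TPM in SIRT4 and 169.7 ± 10.1 TPM in ctrl libraries (SD, n = 3 each). MAP2K2 made up 48.4% ± 2.01 of that sum in SIRT4 and 50.9% ± 3.05 in ctrl libraries, shares that overlapped. Their near-even level depends on the summed exon length. This is 5236 bases for MAP2K2 (longest transcript 2926) and 3759 bases for MAP2K1 (longest transcript 3410).

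MAPK3 (ERK1), the last kinase of the cascade, is ENSG00000102882 on chromosome 16 from 30114105 to 30123506 on the minus strand. It had 64.8, 69.4 and 72.1 CPM in SIRT4 libraries, against 63.5, 59.2 and 63.4 CPM in ctrl libraries. The groups did not overlap, but SIRT4 library 1 was only just above ctrl library 1. MAPK3 did not pass, at a log2 fold change of 0.15 (SE 0.06; 95% interval 0.001 to 0.30; edgeR adjusted p = 0.162), and none of 15 alternatives brought its adjusted p under 0.05.

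**Figure D2:**
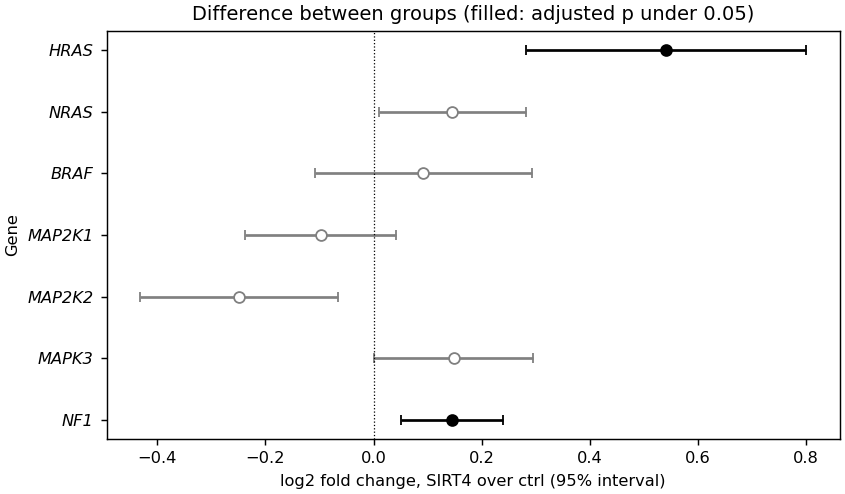
Log2 fold change of SIRT4 over ctrl libraries for each cascade gene (x axis), with its 95% interval from the fit over 20786 genes; filled points passed an adjusted p of 0.05. The point of HRAS, at 0.54, lies apart from those of the other genes, which fall between -0.25 and 0.15. Its interval begins at 0.281, below the upper ends for BRAF (0.293) and MAPK3 (0.295).

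Levels differed widely between the members. Per length and over all 6 libraries, NRAS averaged 91.4 TPM, HRAS 86.2, MAP2K1 79.6 and MAP2K2 78.9 TPM. The ranges of these neighbours overlapped and each neighbouring pair changed order between libraries, so the order of neighbours is not resolved. NRAS was above MAP2K1 within each library, but narrowly in ctrl library 1 (83.63 against 82.2 TPM) and ctrl library 3 (86.48 against 85.01 TPM). MAPK3 followed at 59.4 TPM, NF1 at 25.0 TPM and BRAF at 5.65 TPM, each below the whole range of the gene just before it in this order. The range of MAPK3, 54.13 to 63.65 TPM, still overlapped that of HRAS, which began at 61.52 TPM, although MAPK3 was below HRAS within each library. These ranges cover the spread between libraries and not the choice of length. MAPK3 has 3669 bases of summed exons but 2567 in its longest transcript, and its place by other lengths was not tested. TPM rests here on the summed exon length in GENCODE 29, which for BRAF is 23432 bases and for NF1 27130 bases, against 1854 bases for HRAS; a longer sum of rarely used exons lowers the value. Among tested protein-coding genes, the level of NRAS stood at percentile 89.6, that of HRAS at 88.9 and that of BRAF at 28.5.

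**Figure D3:**
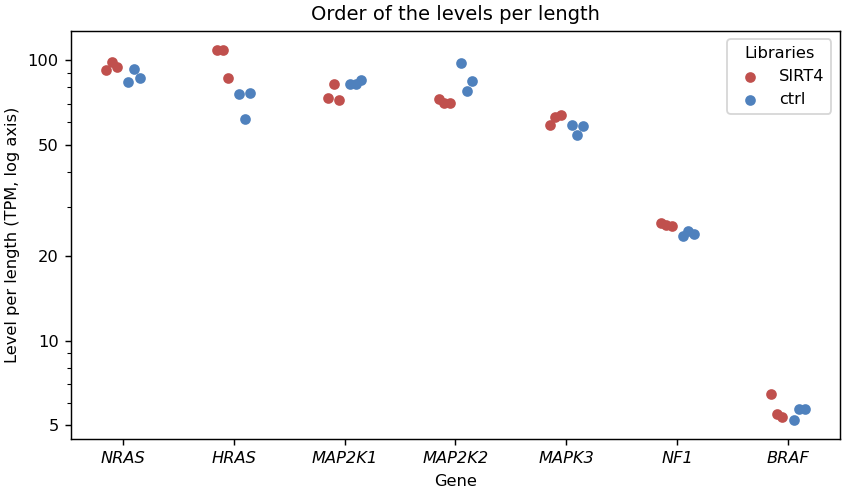
Level per length in TPM (log y axis) of the cascade genes in each SIRT4 and ctrl library, ordered by the mean over the 6 libraries. NRAS, HRAS and both MEK genes overlap between 61.5 and 109 TPM, and BRAF lies lowest at 5.20 to 6.45 TPM.

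The genes whose profile over the 6 libraries was most like a member's were sought among 10550 others at 10 CPM or more, by the root mean square difference of centred log2 CPM. For HRAS these were the complex I subunit gene NDUFA2, at a difference of 0.0495, and the apolipoprotein gene APOC1, at 0.0607. For MAP2K2 they were NFATC2IP, at 0.0265, and VAT1, at 0.0288. For MAPK3 they were EIF3CL, at 0.0193, a near-identical copy of EIF3C whose reads may be shared, and the vesicle-sorting gene VPS45, at 0.0219. The likeness is a description over 6 libraries and was not tested.

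The rest of the pathway was read from 7 further lists with 78 tested genes, of which 8 were higher, 17 lower and 53 did not pass. That is 32.1% called, against 17.1% of all tested genes, with a median log2 fold change of -0.04. Without SIRT4 library 2 only 4 were higher, and without ctrl library 3 only 5. The 7 lists were chosen with earlier results of these data known. Their share called is therefore no evidence that the pathway stands apart from the background. Of 4 RAS and RAF paralogs only RRAS was lower (25% called, against the same 17.1%). RRAS, a RAS-related GTPase linked to integrin function, had 101.5, 107.9 and 101.9 CPM in SIRT4 libraries, against 142.3, 138.9 and 146.7 CPM in ctrl libraries. This was a log2 fold change of -0.46 (SE 0.05; edgeR adjusted p = 0.000754), without overlap. MRAS, RRAS2 and the RAF kinase gene ARAF did not pass, with log2 fold changes of -0.06, 0.16 and 0.18.

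Upstream of RAS, 3 of 13 tested adaptor and exchange factor genes were lower and none was higher. That is 23.1% called, against 17.1% of all tested genes. Those lower were the docking protein gene GAB2 (log2 fold change -0.47) and the exchange factor genes RASGRF2 (-0.57) and RASGRP2 (-0.65). RASGRP2 lost its call without SIRT4 library 2 or 3 (edgeR adjusted p = 0.0771 and 0.0752). It also lost it without ctrl library 1, 2 or 3 (0.0585, 0.0714 and 0.0777) and with the replicate number as a block (0.0581). The call held in 9 of 15 alternatives. SOS1 and SOS2, the exchange factors that receptor tyrosine kinases recruit, did not pass, with log2 fold changes of 0.15 and 0.12. The adaptor gene GRB2 was uneven in SIRT4 libraries, at 132.4, 202.3 and 63.1 CPM against 220.7, 210.5 and 234.7 CPM in ctrl libraries, and did not pass.

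Among 11 tested genes of GTPase-activating proteins and NF1 partners, 3 were lower and none higher. RASA1 and RASA2, which like NF1 promote GTP hydrolysis by RAS, had log2 fold changes of -0.39 and -0.52. RASA1 had 72.1, 79.4 and 79.2 CPM in SIRT4 libraries, against 96.2, 104.0 and 102.9 CPM in ctrl libraries, without overlap. SPRED3, of the family that brings NF1 to the membrane, had a log2 fold change of -0.55, and these were the 3 lower genes of the 11. That is 27.3% called, against 17.1% of all tested genes, of which 7.67% were lower. Over the alternatives 3 to 5 of the 11 were lower. NF1 itself was higher, a call lost in 8 of 15 alternatives.

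Of 12 genes of RAS lipid processing and trafficking, 1 was higher and none lower (8.33% called, against 17.1% of all tested genes). FNTB, the beta subunit of the farnesyltransferase that attaches the lipid anchor of RAS proteins, had 19.8, 16.0 and 19.9 CPM in SIRT4 libraries. It had 8.56, 11.1 and 9.70 CPM in ctrl libraries. The groups lay well apart, at a log2 fold change of 0.92 (SE 0.14; edgeR adjusted p = 0.00329). LYPLA1, which removes palmitate from proteins, narrowly missed the threshold (log2 fold change -0.28, edgeR adjusted p = 0.0517) and was called lower in 7 of 15 alternatives; it was named after its value was seen. The alpha subunit gene FNTA did not pass, at -0.04, and neither did RCE1 and ICMT, which complete the processing, at -0.03 and 0.27.

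Of 16 scaffold and regulator genes of RAF, MEK and ERK, 4 were higher and 2 lower (37.5% called, against 17.1% of all tested genes). KSR1, the scaffold that holds RAF and MEK together, was lower (log2 fold change -0.58). PEBP1, an inhibitor of RAF, and YWHAE, which binds phosphorylated RAF, each rose by 0.25 on the log2 scale. Only 1 was lower without SIRT4 library 1 or 2 or ctrl library 2 or 3. Of 12 ERK substrate kinase and transcription factor genes, 2 were higher and 3 lower (41.7% called, against the same 17.1%). RPS6KA2, a kinase gene of the RSK family, was lower, at 14.5 ± 1.41 CPM in SIRT4 and 28.9 ± 0.961 CPM in ctrl libraries (SD, n = 3 each). So was MKNK2, an ERK-activated kinase gene of translation control (log2 fold change -0.44), while RPS6KA3, also of the RSK family, was higher (0.27). None was higher without SIRT4 library 2 or ctrl library 3 and 1 was higher without SIRT4 library 1 or ctrl library 2; without ctrl library 2 only 1 was lower. MKNK2 had an edgeR adjusted p of 0.0515 without ctrl library 2, and RPS6KA3 had 0.0527 without SIRT4 library 2 and 0.0539 without ctrl library 3.

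Genes transcribed in response to ERK were counted last. Of 10 genes used as a readout of ERK activity, 5 were lower and 1 higher (60% called, against 17.1% of all tested genes). Their median log2 fold change was -0.60, against -0.02 for all tested genes. The receptor gene EPHA2 had 667.6, 673.5 and 660.8 CPM in SIRT4 libraries, against 1106, 1040 and 1074 CPM in ctrl libraries, a log2 fold change of -0.69. SPRY2, a feedback inhibitor of RAS signalling, was lower (-0.69), as was the transcription factor gene ETV5 (-0.45). The feedback genes SPRY4 (-0.80) and DUSP6 (-0.79) were lower too, and EPHA4 (1.71) was higher at 1.80 CPM in SIRT4 and 0.545 CPM in ctrl libraries, a call lost without SIRT4 library 2. These were named after their values were seen. CCND1 did not pass, at -0.11. These 10 genes were listed with earlier results on ERK targets in these libraries known, so they are no independent evidence of direction.

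**Figure D4:**
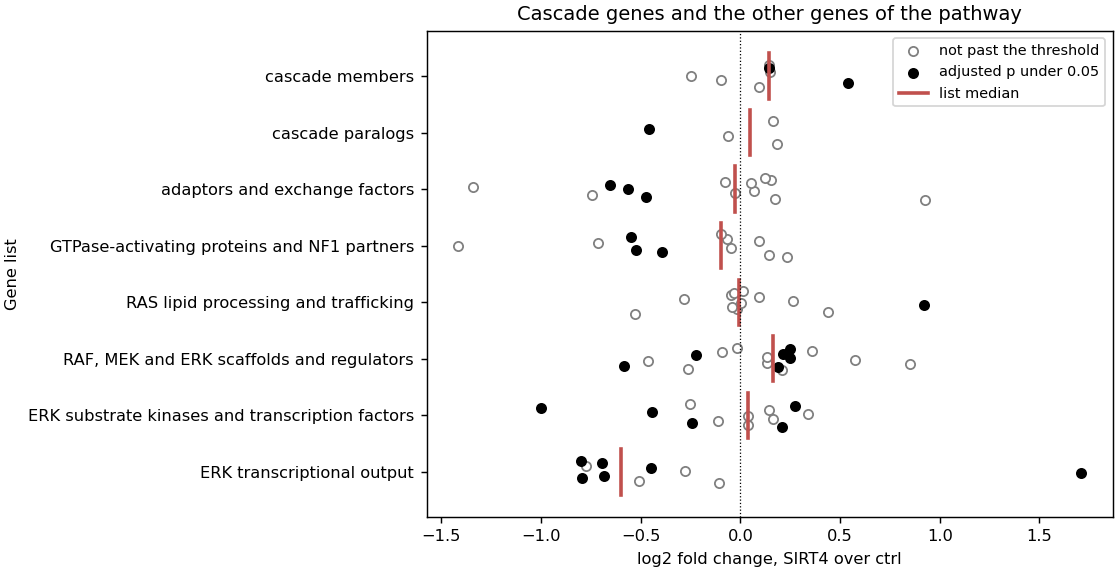
Log2 fold change of SIRT4 over ctrl libraries (x axis) for every tested gene of the cascade and of 7 other pathway lists; filled points passed an adjusted p of 0.05 and the bar is the list median. The cascade genes lie close to 0 apart from HRAS, while the ERK output list has its median at -0.60. That list was drawn up with earlier results on ERK targets in these libraries known.

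**Figure D5:**
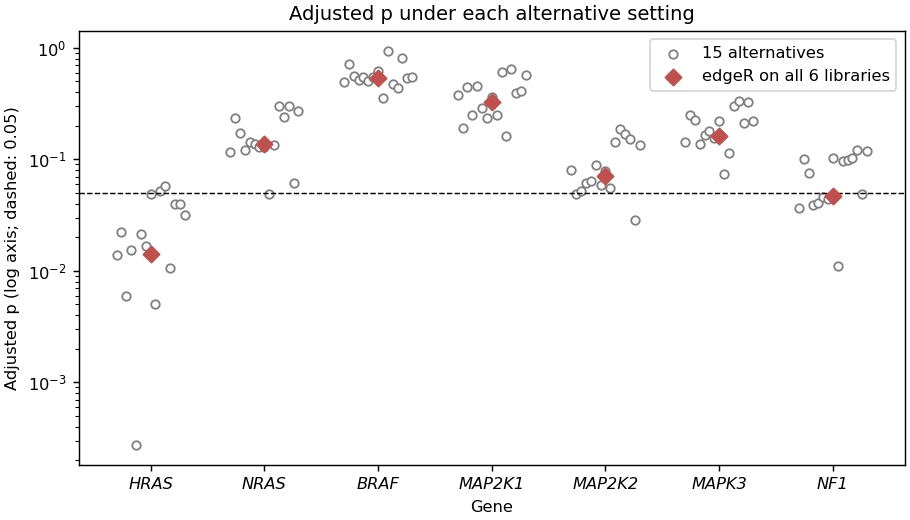
Adjusted p of each cascade gene (log y axis) on all 6 libraries by edgeR and under 15 alternative settings; the dashed line is 0.05. HRAS lies under the line in 13 of 15 alternatives, NF1 in 7, MAP2K2 in 2, NRAS in 1 and the other genes in none.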

How the data were processed

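Per the labels' protocols, Trizol was used to extract the RNA and NEBNext Ultra to build the libraries. The submitters' processing notes name hg38, STAR, featureCounts, Subread and DESeq2, with no version or role. The deposited values are whole numbers per Ensembl gene that were treated as estimated counts, because in ctrl replicate 1 the low values rose at 4 (1278 genes, against 792 at 3); rounding changed nothing. How the authors derived these estimated counts, and with which strand setting, is not stated there. Symbols came from a table of identifiers (60357 matched) and GENCODE 29 (296 more), which also gave lengths and coordinates.

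In R 4.3.3, filterByExpr left 20786 genes for the robust quasi-likelihood test of edgeR 4.0.16 with TMM scaling, fitted to all 6 libraries with group as the only term, with Benjamini-Hochberg adjustment over all tested genes and a threshold of 0.05. Standard errors were derived from the log2 fold change and its F statistic. The procedure was tested on simulated data. Alternatives were other scalings and filters, DESeq2 1.42.0, limma-voom (limma 3.58.1), division of every value by 4, a replicate block and the omission of each library; an offset for GC content and length was added after seeing the data. No library was left out.

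The members and lists were chosen with earlier results of these data known. The text names SIRT4, the 7 members, up to 3 members past the threshold with the smallest adjusted p in each list, and the 2 closest profiles; other names were chosen after their values were seen. Some further paralogs of the cascade are not reported here.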

Additional observations from a re-analysis of the deposited data

How the results depend on the processing

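All 7 cascade genes kept the sign of their log2 fold change in all 15 alternatives; the calls were less stable. With library size only, NF1 (0.11) lost its call and MAP2K2 (-0.28) gained one, leaving 1 member higher and 1 lower. NF1 also lost its call without a low-count filter (0.15, 1 member higher). The GC and length offset gave NRAS a call (0.16), and DESeq2 gave SIRT4 one (0.64). Leaving out each library in turn gave 0 to 2 members higher and 0 to 1 lower, with log2 fold changes of 0.45 to 0.64 for HRAS, 0.13 to 0.16 for NF1 and -0.32 to -0.15 for MAP2K2. It gave 978 to 1204 lower genes over the table, where all libraries gave 1595, the lowest being 978 without ctrl replicate 3, then 1021 and 1058 without SIRT4 replicates 2 and 3. In the 7 pathway lists it gave 4 to 8 higher, with 4 without SIRT4 replicate 2 and 5 without ctrl replicate 3. Fewer samples were fitted in these cases, and otherwise the cause was not tested. With the replicate number as a block, 1 member was higher, since NF1 (0.15, adjusted p = 0.103) lost its call, and 1450 genes were higher and 1140 lower. Deviations of libraries with the same number correlated at 0.012, 0.024 and -0.013, and not every library correlated best with its own number, so the numbers were not taken to pair the samples. Of 210 counts for the 7 single lists under an alternative, 23 moved by over 1.5 times. No scaling moved the median of all genes by more than 0.05 on the log2 scale. The members had 1752 to 13925 estimated counts per library; counting error was not separated from the spread between libraries.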
